A study of Mus musculus with 24 samples.

Results

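The genes Necab3, E2f1, Dsc2, Cpsf4l, Mybpc3 and Olfm3, 6 in number, do not share a known pathway. They were chosen by symbol for a clear decrease at 79 weeks in these same libraries, out of 37991 Ensembl genes counted, so their levels are given as a description with no test, and a decrease in them is not a finding. The choice had no numerical threshold. All 6 passed the low-count filter, which left 15292 genes tested. RNA came from the cerebellum of male mice of the inbred strain C57BL/6J, with 2 libraries at 7 weeks (young adult) and 2 at 79 weeks (aged), and the labels name no treatment or genetic change. Of the 24 samples in the series, the 20 genomic ones, which measure cytosine methylation and hydroxymethylation, are not analysed here. The titles call the libraries of an age replicates, and mark technical replicates separately in some of the genomic samples. Whether the replicates are different animals is not stated, so the spread within an age may not be that between animals.

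The genes belong to different cellular systems. E2f1 encodes a transcription factor that drives entry into DNA replication and is held inactive by the retinoblastoma protein, and it is also made in neurons that no longer divide. Necab3, its neighbour on chromosome 2, encodes an EF-hand calcium-binding protein that binds the neuronal adaptor encoded by Apba2. Dsc2 encodes desmocollin 2, a cadherin of desmosomes, the junctions that hold epithelial and heart muscle cells together. Cpsf4l is named for its likeness to Cpsf4, which encodes an RNA-binding subunit of the complex that cuts messenger RNA precursors before a poly(A) tail is added. Mybpc3 encodes cardiac myosin-binding protein C, a protein of the thick filament of heart muscle. Olfm3 encodes a secreted olfactomedin-domain glycoprotein of brain and retina.

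The libraries held 16367656 to 22826993 reads in genes, and levels are given as CPM, read counts brought to a common library size with TMM scaling, a correction for library composition. A count of 3 reads, the limit that a count of 0 allows, corresponded to 0.130 to 0.187 CPM, and such limits and the intervals below cover counting error only. Cerebellar genes were present in all 4 libraries, for example Gabra6 at 591 to 888 CPM, and the summed level of 8 cerebral cortex markers was 9.85 to 11.97 CPM. One library stood apart: 79-week replicate 1 had a summed level of 5386 CPM over 10 choroid plexus markers, against 16.5 to 38.7 CPM in the other 3, with Ttr at 5061 CPM. By edgeR's quasi-likelihood test, 1352 of the genes (8.84%) were called, meaning a Benjamini-Hochberg adjusted p under 0.05. Of all genes tested, 4.17% were called higher and 4.68% lower at 79 weeks, and the median log2 fold change was 0.01. With 7-week replicate 1 left out, edgeR called 0 genes, although 2610 had an unadjusted p below 0.05 and DESeq2 called 235, so every edgeR call below depends on that library. With 7-week replicate 2 left out it called 175 genes, and of the 18 called genes in the lists and neighbourhoods described below, 16 were no longer called, all but Ncald and Tcap.

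The 2 libraries of 79 weeks lay below both of 7 weeks for 6 of 6 genes, which was also so for 28.7% of all genes tested. That count follows from how the genes were chosen. The decrease differed widely in size. Ordered from the lowest log2 fold change upwards among 15292 genes, Dsc2 stood at 2, Necab3 at 6, Cpsf4l at 10, E2f1 at 15, Mybpc3 at 45 and Olfm3 at 258. In bulk RNA, fewer cells of a type and less RNA per cell cannot be told apart.

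**Figure D1:**
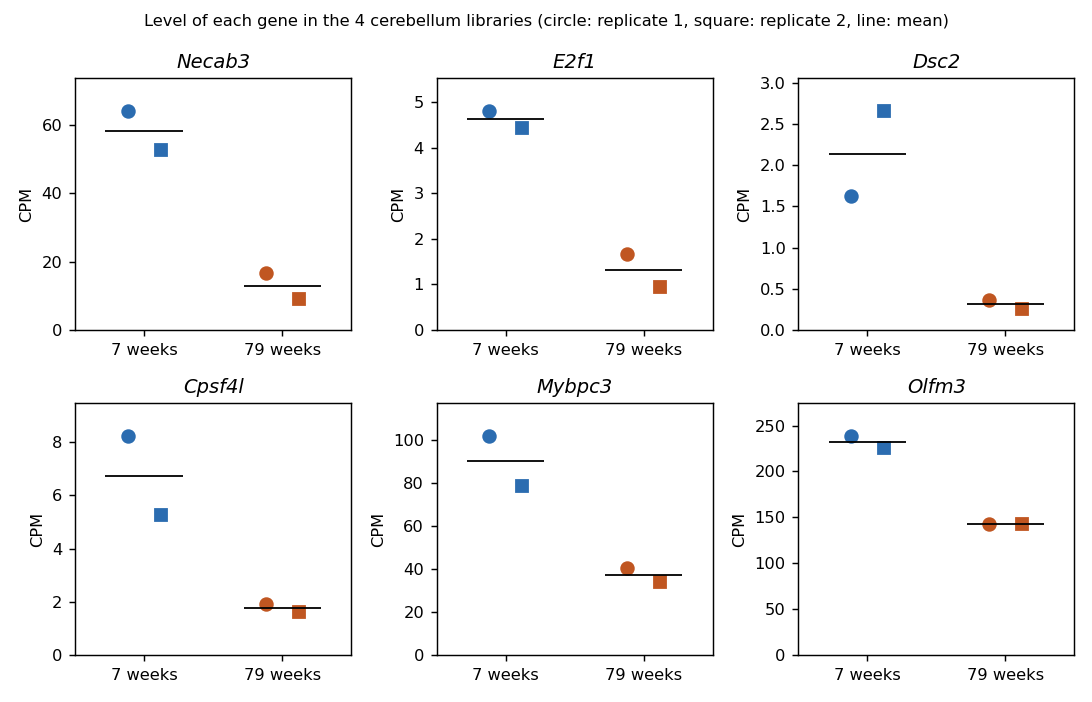
Level of the 6 genes in each library, in CPM on a linear axis from 0, with 7-week libraries in blue, 79-week libraries in orange, replicate 1 as circles, replicate 2 as squares and the mean of each age as a line. In each panel both 79-week points lie below both 7-week points, by the widest margin relative to level for Dsc2 and the narrowest for Olfm3.

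E2f1 (ENSMUSG00000027490) and Necab3 (ENSMUSG00000027489) are neighbours on chromosome 2 and lie on the same, reverse strand in RefSeq's annotation, with E2f1 upstream. Their annotated spans overlap by 7 bases where E2f1 ends. Necab3 stood at 64.1 and 52.7 CPM in 7-week replicates 1 and 2 (1029 and 1093 reads) and at 16.6 and 9.20 CPM in the 79-week replicates (321 and 213 reads). E2f1 stood at 4.80 and 4.44 CPM at 7 weeks (77 and 92 reads) and at 1.66 and 0.951 CPM at 79 weeks (32 and 22 reads). Both genes were highest in 7-week replicate 1 and lowest in 79-week replicate 2, and the ages did not meet for either. Cpsf4l, Mybpc3 and Olfm3 were also highest and lowest in these libraries, so this is not particular to the pair.

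As means, Necab3 went from 58.4 ± 8.04 to 12.9 ± 5.25 CPM (SD, n = 2 per age), or 22.1% of the 7-week level, with a log2 fold change of -2.19 (SE 0.23). E2f1 went from 4.62 ± 0.25 to 1.30 ± 0.50 CPM, or 28.2% of the 7-week level, with a log2 fold change of -1.83 (SE 0.32). The lowest 7-week library exceeded the highest 79-week library 3.17-fold for Necab3 and 2.68-fold for E2f1. Without 79-week replicate 1, the library rich in choroid plexus markers, the log2 fold changes were -2.66 and -2.27, further from 0 than with all libraries.

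Replicates of the pair differed more at 79 than at 7 weeks. For Necab3 the CPM of replicate 1 was 1.22 times that of replicate 2 at 7 weeks (95% counting interval 1.12 to 1.32) and 1.81 times at 79 weeks (1.51 to 2.16), so both gaps were wider than counting error. For E2f1 the ratios were 1.08 (0.788 to 1.48) and 1.74 (0.982 to 3.15), and both intervals held 1. Replicate spread at 79 weeks was thus of like size in the neighbours, but it could be told from counting error only for Necab3, which had more reads.

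The number of Necab3 reads per E2f1 read was similar in the 4 libraries. It was 13.4 (95% interval 10.6 to 17.1) and 11.9 (9.60 to 14.9) at 7 weeks, and 10 (6.96 to 14.9) and 9.68 (6.23 to 15.8) at 79 weeks. Every interval overlapped every other, and both values were lower at 79 weeks than at 7. Both genes were chosen for a decrease at 79 weeks, so a ratio that changes little between the ages follows in part from that choice. The overlap therefore does not show that the neighbours change together. This ratio is of raw reads and is not corrected for gene length, so it does not compare the abundance of the transcripts. Reads that fell on more than 1 gene, 0.696% to 0.766% of each library, were set aside in counting and are in neither gene's count. Whether counting used strand is not known.

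**Figure D2:**
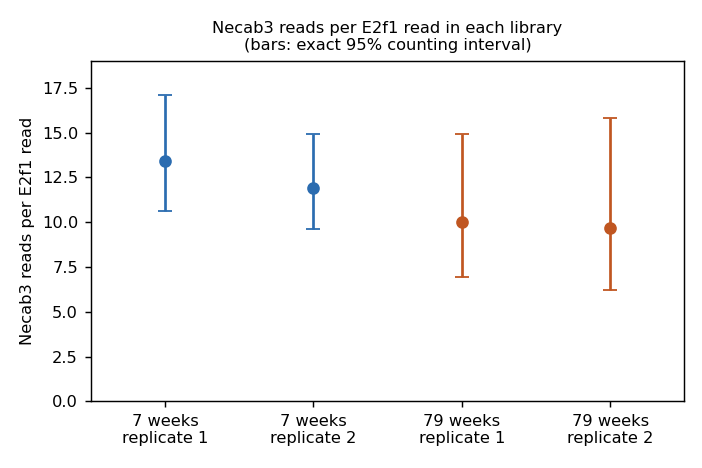
Raw Necab3 reads per E2f1 read in each of the 4 libraries, on a linear axis from 0, with exact 95% counting intervals as bars (blue 7 weeks, orange 79 weeks). The points run from 13.4 in 7-week replicate 1 to 9.68 in 79-week replicate 2, and the bars overlap.

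A promoter window of Necab3 is shown because it is the gene of the pair with more reads. It runs from 250 bases before to 50 bases after a RefSeq start site in build GRCm38.p6 (the counts were made on mm9), at chr2:154558805-154559104 on the reverse strand. That site lies 552 bases inside the outermost annotated edge of the gene, so other starts are annotated upstream. This window and the one listed for E2f1 both lie wholly within their genes. For E2f1 the listed start is 466 bases from the edge, and its window is not described. Capitals mark the GC box GGGCGG and the CCAAT box CCAAT on either strand.
Necab3: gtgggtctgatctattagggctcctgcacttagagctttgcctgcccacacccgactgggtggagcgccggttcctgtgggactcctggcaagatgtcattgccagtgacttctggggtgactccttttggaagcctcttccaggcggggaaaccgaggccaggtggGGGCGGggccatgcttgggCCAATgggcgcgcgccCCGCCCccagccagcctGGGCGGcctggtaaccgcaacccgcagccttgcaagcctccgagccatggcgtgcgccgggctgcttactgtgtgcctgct
The window held 17 CG dinucleotides against a median of 7 over 32851 RefSeq windows of this length, of which 68.6% had fewer. It held 3 GC boxes, a motif found at least once in 35.7% of all windows, and 1 CCAAT box, present in 37.4% of windows. None of the E2F words TTTCCCGC, TTTCGCGC, TTTGCCGC and TTTGGCGC, searched on both strands and present in 2.26% of windows, occurred in it. These matches describe the letters of this window only.

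The genes around the pair did not show decreases of that size. Of the 5 tested neighbours in RefSeq's gene order that are reported here, 0 were called in edgeR and 0 had an unadjusted p below 0.05, while 4.68% of all genes tested were called lower. Limma-voom also called 0 of the 5, and DESeq2 called 0 of the 4 to which it gave an adjusted p, all but 1700003F12Rik. Cbfa2t2, which encodes a transcriptional corepressor, had a log2 fold change of -0.04 (SE 0.07) on the side of Necab3. Pxmp4, which encodes a peroxisomal membrane protein, had one of -0.08 (SE 0.11) on the side of E2f1. Further out, Cdk5rap1 and Zfp341 had log2 fold changes of -0.15 (SE 0.19) and -0.24 (SE 0.11).

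The small genes 1700003F12Rik and Actl10 lie within the span of Necab3. 1700003F12Rik stood at 0.685 and 0.820 CPM at 7 weeks and at 0.570 and 0.303 CPM at 79 weeks, with a log2 fold change of -0.81 (SE 0.51, edgeR adjusted p = 0.35). Actl10 had at most 0.0965 CPM in a library and was not tested. How reads within the shared span were divided among these genes and Necab3 depends on the counting, and values for 1700003F12Rik and Actl10 are uncertain for that reason.

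**Figure D3:**
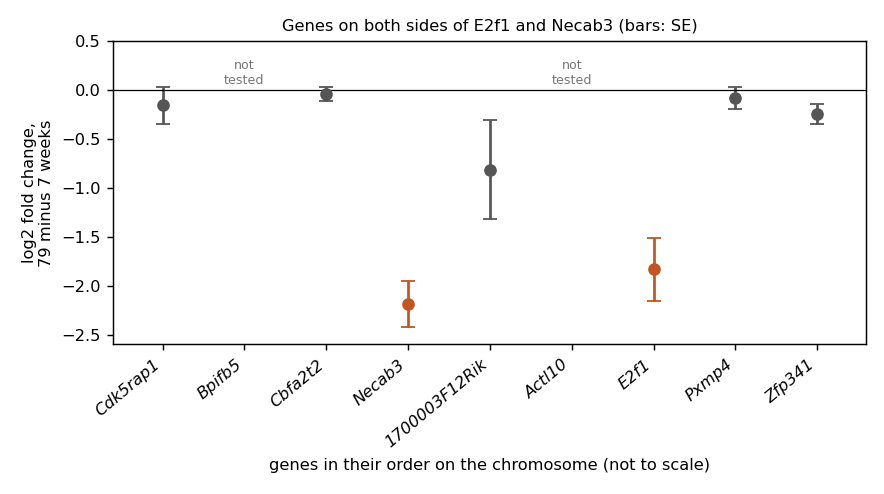
Log2 fold change (79 minus 7 weeks, linear axis, bars SE) of Necab3 and E2f1 (orange) and of their neighbours (grey), in gene order along chromosome 2, not to scale and without every neighbour. Necab3 at -2.19 and E2f1 at -1.83 lie below the 5 tested neighbours shown, which run from -0.81 for 1700003F12Rik to -0.04 for Cbfa2t2.

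The list of E2F factors, their DP partners and the retinoblastoma family had 10 of 12 genes tested, with 0 higher and 0 lower in edgeR, 2 at an unadjusted p below 0.05 (Tfdp1 and Tfdp2) and 0 called by DESeq2 or limma-voom. Robust dispersion estimates gave 1 call, as did leaving out the low-count filter. Their median log2 fold change was -0.12. E2f3 and E2f4 stood at 17.37 and 49.99 CPM at 7 weeks and at 14.46 and 44.98 CPM at 79 weeks. E2f5 and E2f6 had log2 fold changes of -0.02 and 0.08, and E2f7 had one of -0.44 (SE 0.33). E2f2 and E2f8 were too low to test. E2f2 averaged 0.245 and 0.233 CPM at the 2 ages. E2f8 stood at 0.249 and 0.289 CPM at 7 weeks (4 and 6 reads) and at 0.0518 and 0.0864 CPM at 79 weeks (1 and 2 reads), so its ages did not meet either. Rb1, which encodes the retinoblastoma protein, stood at 86.0 ± 11.4 and 75.5 ± 2.11 CPM, and its relative Rbl2 at 72.9 and 68.4 CPM.

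Among genes of DNA replication and division that E2F factors are known to control, values lay on both sides of 0. Of 24 tested among 28, 1 was called higher and 0 lower, near the shares of all genes (4.17% and 4.68%), and the median log2 fold change was 0.10 against 0.01 for all genes tested. The called gene was Mcm6, a subunit of the replicative helicase, which rose from 4.72 ± 0.77 to 8.69 ± 0.01 CPM (log2 fold change 0.88, SE 0.19, edgeR adjusted p = 0.033). Genes with values on the side of E2f1 included Ccne2, a cyclin gene (log2 fold change -0.48, SE 0.14, edgeR adjusted p = 0.0727), the topoisomerase gene Top2a (-1.47, SE 0.50, adjusted p = 0.109) and Mki67 (-0.92, SE 0.51, adjusted p = 0.299). The thymidylate synthase gene Tyms lay on the other side (1.03, SE 0.26, edgeR adjusted p = 0.0541). So did Mcm4, Mcm5, Mcm7 and Ezh2, with log2 fold changes of 0.28, 0.28, 0.24 and 0.33, which were not called. Their unadjusted p in edgeR was below 0.05, as was that of Tyms, Ccne2 and Top2a but not that of Mki67. Without 79-week replicate 1, 3 genes of the list were called. Markers of dividing cells were scarce at both ages, with a summed level over 8 genes of 3.96 and 5.05 CPM at 7 weeks and 3.41 and 4.09 CPM at 79 weeks.

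The other genes of the NECAB family went the opposite way to Necab3. Necab1 rose from 29.9 ± 1.82 to 39.7 ± 3.57 CPM (log2 fold change 0.41, SE 0.10, edgeR adjusted p = 0.0429), and it was not called by limma-voom (adjusted p = 0.0518, with 0.000617 to 0.0518 over the alternatives that keep all libraries) and, in edgeR, in 3 of 4 fits that left out 1 library, including that without 79-week replicate 1 (adjusted p = 0.00341 to 0.264 over the 4 fits). Necab2 rose from 1.25 and 2.90 CPM at 7 weeks to 5.90 and 5.62 CPM at 79 weeks (log2 fold change 1.45, SE 0.36, edgeR adjusted p = 0.0493). The libraries of the ages did not meet for either gene.

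Calcium sensors of neurons changed in both directions. Of 20 genes in the list of EF-hand sensors and NECAB3 partners, all tested, 3 rose, 6 fell and 11 were not called. Their median log2 fold change was -0.11. Over all genes tested, 4.17% were called higher and 4.68% lower. Ncald fell by 0.50 on the log2 scale (SE 0.06, edgeR adjusted p = 0.00618), Vsnl1 fell by 0.33, and Hpcal4, a close relative of both, rose from 32.4 to 49.1 CPM (log2 fold change 0.60, SE 0.08). The Purkinje cell buffer gene Calb1, the granule and unipolar brush cell gene Calb2 and the adaptor gene Apba1 also fell. The call of Calb1 ended with library size scaling (adjusted p = 0.0751, with 0.000604 the lowest over alternatives that keep all libraries). Apba2, whose product binds NECAB3, stood at 254 ± 7.47 and 249 ± 12.6 CPM (adjusted p = 0.81). Without 79-week replicate 1 the test called 8 genes of this list, and without 7-week replicate 2 it called 1.

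Dsc2 (ENSMUSG00000024331, chromosome 18) had the fewest reads of the 6 genes. It stood at 1.62 and 2.65 CPM at 7 weeks (26 and 55 reads) and at 0.363 and 0.259 CPM at 79 weeks (7 and 6 reads). The 79-week values are close to the limits of 0.155 and 0.130 CPM that a count of 0 allows there. The mean went from 2.14 ± 0.73 to 0.311 ± 0.07 CPM, or 14.55% of the 7-week level (log2 fold change -2.78, SE 0.45).

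Replicates of Dsc2 diverged at 7 weeks, where the ratio of replicate 1 to replicate 2 was 0.61 (95% counting interval 0.367 to 0.99). It was the 1 gene of the 6 with the higher 7-week level in replicate 2. At 79 weeks the ratio was 1.40, with an interval of 0.402 to 5.04. Left-out libraries moved the log2 fold change from -3.11 without 7-week replicate 1 in DESeq2 to -2.37 without 7-week replicate 2 in edgeR.

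Of 15 other desmosome genes, 5 were tested and 0 were called in edgeR, with 0 at an unadjusted p below 0.05 and 0 called by DESeq2 or limma-voom. Without the low-count filter 2 were called, and without 79-week replicate 2 edgeR called 3. Jup and Pkp4, which encode armadillo proteins also found at other junctions, stood at 222 and 423 CPM at 7 weeks and at 227 and 420 CPM at 79 weeks. The other desmocollin genes were almost silent, with no read for Dsc1 in any library and 0.0518 and 0.130 CPM for Dsc3 at 79 weeks only. Dsp and Dsg2, which encode desmoplakin and desmoglein 2, were not tested. They stood at 4.51 and 2.59 CPM in 79-week replicate 1, the library rich in choroid plexus markers, and at no more than 0.130 and 0.389 CPM in the other libraries. Keratinised epithelium markers, 8 in number, summed to 5.42 and 5.45 CPM at 7 weeks and 8.39 and 7.78 CPM at 79 weeks, with 3 tested, 0 called and a median log2 fold change of 0.84 among those tested. Of these 8, Krt5 and Krt14 had no read in any library. Next to Dsc2 in gene order, Dsc3, Dsg1a and Dsg3 were too low to test, and the 1 tested neighbour, Gm15328, had a log2 fold change of 0.14 (SE 0.26).

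Cpsf4l (ENSMUSG00000018727, chromosome 11) stood at 8.22 and 5.26 CPM at 7 weeks (132 and 109 reads) and at 1.92 and 1.60 CPM at 79 weeks (37 reads in each). The mean went from 6.74 ± 2.10 to 1.76 ± 0.22 CPM, or 26.1% of the 7-week level (log2 fold change -1.93, SE 0.29). The 7-week replicates were further apart than counting error, at a ratio of 1.56 (95% counting interval 1.20 to 2.03), and the 79-week replicates were not, at 1.20 (0.739 to 1.94). Without 7-week replicate 1, the higher of that age, the log2 fold change was -1.59 in both edgeR and DESeq2.

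Cpsf4, after which Cpsf4l is named, stood at 32.0 ± 1.21 CPM at 7 weeks and 31.2 ± 5.78 CPM at 79 weeks (log2 fold change -0.04, SE 0.13). Of 20 genes of messenger RNA cleavage and polyadenylation, all tested, 0 rose and 1 fell, with a median log2 fold change of 0.00 (0.00289). Cpsf2, which encodes another subunit of the cleavage complex, fell by 0.32 on the log2 scale (SE 0.07, edgeR adjusted p = 0.0298), a call that ended with library size scaling (adjusted p = 0.0512, with 0.00128 the lowest over the alternatives that keep all libraries). D11Wsu47e, whose span overlaps that of Cpsf4l in RefSeq, stood at 9.41 and 6.56 CPM at 7 weeks and at 6.58 and 7.35 CPM at 79 weeks (log2 fold change -0.19, SE 0.21), and how the overlap was counted is not known. On the other side Cdc42ep4, an effector gene of the GTPase CDC42, was called lower, at 155 and 118 CPM on average (log2 fold change -0.40, SE 0.08, edgeR adjusted p = 0.0276).

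Mybpc3 (ENSMUSG00000002100, chromosome 2) stood at 102 and 78.6 CPM at 7 weeks (1636 and 1629 reads) and at 40.3 and 34.0 CPM at 79 weeks (779 and 786 reads). The mean went from 90.3 ± 16.5 to 37.1 ± 4.51 CPM, or 41.2% of the 7-week level (log2 fold change -1.28, SE 0.13). Replicate 1 was the higher at both ages, by 1.30 times at 7 weeks (95% counting interval 1.21 to 1.39) and 1.19 times at 79 weeks (1.07 to 1.31), more than counting error in each. The lowest 7-week library was nevertheless 1.95 times the highest 79-week one.

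Of 30 genes of the striated muscle filament on the list, 15 were too low to test. Of the 15 tested, 1 rose and 0 fell, with a median log2 fold change of 0.11. The list ranged from Tpm1 and Nebl, also made outside muscle, at 142 and 95.6 CPM on average at 7 weeks, to Myl7 and Tnnc1, which had no read. The cardiac myosin gene Myh6 stood at 0.187 to 0.386 CPM over the 4 libraries. Myh7, another cardiac myosin gene, stood at 1.61 CPM in 79-week replicate 1, the library rich in choroid plexus markers, and at no more than 0.0965 CPM in the others. The cardiac troponin gene Tnnt2 stood at 0 to 0.207 CPM, and Tnni3 at 0.546 CPM at 7 weeks and 1.39 CPM at 79 weeks on average (log2 fold change 1.34, SE 0.38, edgeR adjusted p = 0.0693). The gene that rose was Tcap, which encodes a cap protein of titin, from 0.583 ± 0.47 to 5.13 ± 0.22 CPM (log2 fold change 3.06, SE 0.45, edgeR adjusted p = 0.0114). Mybpc1, which encodes the slow skeletal form of myosin-binding protein C, stood at 63.7 and 64.8 CPM at 7 weeks and at 73.2 and 145 CPM at 79 weeks (log2 fold change 0.77, SE 0.27, edgeR adjusted p = 0.114), so its 79-week replicates were far apart. Mybpc2, the fast skeletal form, had at most 0.173 CPM.

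The promoter window of Mybpc3, chr2:91117894-91118193 on the forward strand of GRCm38.p6, is shown beside that of Necab3 for its different base composition and motifs. Capitals mark a GC box and a match to the core of the site of MEF2, a factor of muscle and neurons, searched as CTA, any 4 bases, TAG on both strands.
Mybpc3: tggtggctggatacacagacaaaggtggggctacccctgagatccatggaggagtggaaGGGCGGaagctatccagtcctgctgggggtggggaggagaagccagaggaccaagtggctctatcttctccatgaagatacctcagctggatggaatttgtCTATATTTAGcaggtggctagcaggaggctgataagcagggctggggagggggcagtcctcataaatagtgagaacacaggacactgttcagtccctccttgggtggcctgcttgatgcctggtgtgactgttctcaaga
The window held 1 CG dinucleotide, fewer than most, since 5.43% of all windows had none. The match to the MEF2 core was CTATATTTAG, a pattern found in 3.69% of windows. No such match occurred in the windows of Necab3, Cpsf4l or Olfm3. The exact TATA box word TATAAA, found in 13.6% of windows, occurred in none of the windows of these 4 genes. Other forms of the TATA box were not searched for. On either side of Mybpc3, Spi1, which encodes a transcription factor of microglia, stood at 1.01 ± 0.68 and 1.64 ± 0.19 CPM (edgeR adjusted p = 0.379) and Slc39a13 at 52.9 and 61.9 CPM (0.0959). Madd, a regulator of Rab3 at the synapse, fell by 0.24 on the log2 scale (SE 0.06, edgeR adjusted p = 0.0448), a call that ended with upper-quartile scaling (0.052), library size scaling (0.0826, the highest with all libraries, from 0.00381) and without 79-week replicate 1 (0.0758). Nr1h3, which encodes the liver X receptor alpha, rose from 9.65 to 15.8 CPM (log2 fold change 0.71, SE 0.14, edgeR adjusted p = 0.0247).

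Olfm3 (ENSMUSG00000027965, chromosome 3) had the most reads and the closest replicates of the 6 genes. It stood at 238 and 226 CPM at 7 weeks (3826 and 4683 reads) and at 143 and 142 CPM at 79 weeks (2765 and 3290 reads). The mean went from 232 ± 8.77 to 143 ± 0.74 CPM, or 61.5% of the 7-week level (log2 fold change -0.70, SE 0.05). The replicate ratio was 1.05 at 7 weeks (95% counting interval 1.01 to 1.10) and 1.01 at 79 weeks (0.957 to 1.06). Its decrease was the smallest of the 6 and its standard error was also the smallest.

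Of the related olfactomedin genes, 0 were called in edgeR, with Olfm1 the 1 gene at an unadjusted p below 0.05, and DESeq2 and limma-voom called Olfm1 alone. Olfm1, a secreted protein gene of neurons, stood at 501 ± 38.8 and 408 ± 25.6 CPM (log2 fold change -0.29, SE 0.08, edgeR adjusted p = 0.0549). Olfm2 stood at 13.37 ± 0.14 and 13.45 ± 0.05 CPM, and Olfm4 had a log2 fold change of -0.11 (SE 0.34). Others lay on the opposite side to Olfm3 with wide errors, at 1.03 (SE 0.49) for the myocilin gene Myoc, 0.64 (SE 0.32) for Olfml2a and 0.62 (SE 0.34) for Olfml2b. In the list of olfactomedin proteins, latrophilins and AMPA receptors, 15 of 16 genes were tested, 0 rose and 3 fell, with a median log2 fold change of -0.11. The adhesion receptor genes Adgrl2 and Adgrl3, which encode latrophilins, fell by 0.76 (SE 0.10, edgeR adjusted p = 0.00832) and fell by 0.42 (SE 0.07, edgeR adjusted p = 0.0143) on the log2 scale. The AMPA receptor subunit gene Gria4 fell from 606 to 481 CPM, a log2 fold change of -0.33 (SE 0.06, edgeR adjusted p = 0.0174). DESeq2 called 6 genes of this list, and without 7-week replicate 2 edgeR called 0. In edgeR 0 of the 4 neighbours of Olfm3 were called, with 2 at an unadjusted p below 0.05: S1pr1, a receptor gene for sphingosine 1-phosphate, at 188 and 168 CPM (edgeR adjusted p = 0.161), and Rnpc3, at 46.3 and 56.3 CPM (0.0668).

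Across the 17 family relatives of the 6 genes, 12 were tested, 2 rose, 0 fell and 10 were not called. The 2 that rose were Necab1 and Necab2. In the 7 pathway lists together, 109 of 141 genes were tested and 15 were called, or 13.8% against 8.84% of all genes. Of these, 5 were higher and 10 lower, and the median log2 fold change of those tested was 0.00 (0.00274). The list of EF-hand sensors and NECAB3 partners held 9 of the 15, from 20 tested. No other list had more than 3.

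**Figure D4:**
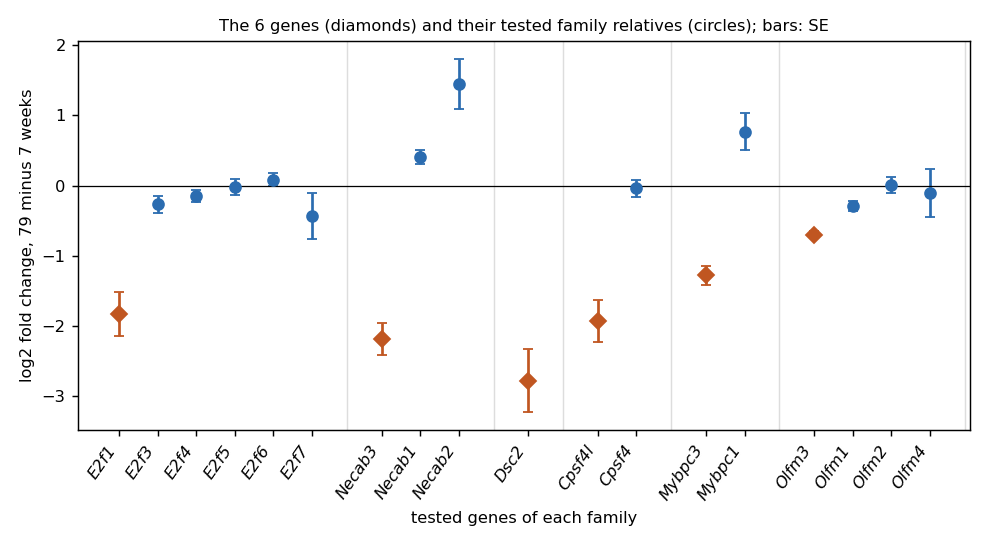
Log2 fold change (79 minus 7 weeks, linear axis, bars SE) of the 6 genes (orange diamonds) and of their 12 tested family relatives (blue circles), by family. The diamonds run from -2.78 for Dsc2 to -0.70 for Olfm3, while the circles run from -0.44 for E2f7 to 1.45 for Necab2.

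Replicate 1 exceeded replicate 2 for 5 of the 6 genes at 7 weeks and for 6 of 6 at 79 weeks. In 1 of 6 comparisons at 7 weeks and 4 of 6 at 79 weeks the counting interval of the replicate ratio held 1. The same counts over all genes tested were not made, so these describe the 6 genes only. Whether an interval holds 1 also depends on the number of reads. For Olfm3 at 7 weeks, with 3826 and 4683 reads, the interval lay above 1 at a ratio of 1.05. For E2f1 at 79 weeks, with 32 and 22 reads, it held 1 at a ratio of 1.74. Over 18 other settings the log2 fold change stayed below 0 for each of the 6 genes. Necab3 ranged from -2.67 to -1.81, E2f1 from -2.28 to -1.48, Cpsf4l from -2.24 to -1.59, Mybpc3 from -1.47 to -1.09 and Olfm3 from -0.75 to -0.65. Without 79-week replicate 1 the values for Dsc2, Cpsf4l, Mybpc3 and Olfm3 were -3.03, -2.06, -1.41 and -0.71.

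**Figure D5:**
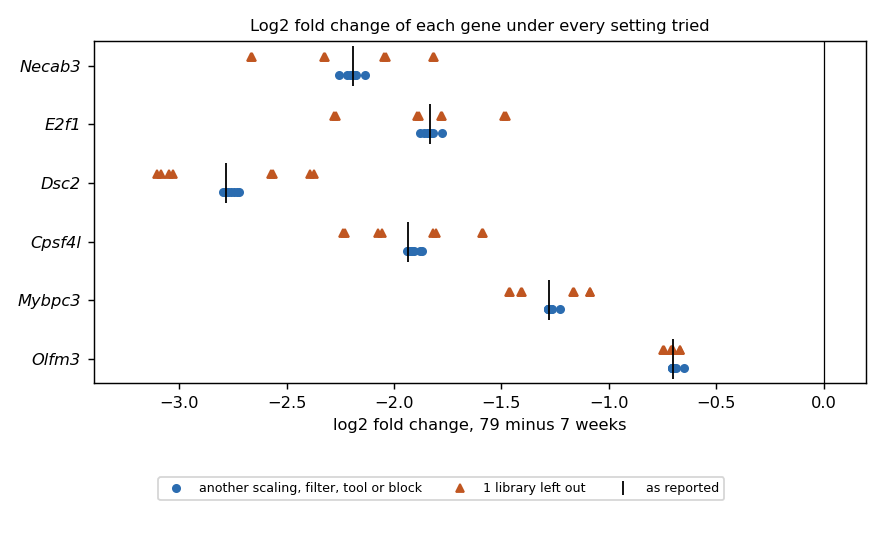
Log2 fold change (79 minus 7 weeks, linear axis) of each of the 6 genes as reported (black bar), with another scaling, filter, tool or replicate block (blue circles) and with 1 library left out (orange triangles). For Necab3 the triangles reach from -2.67 to -1.81, and no point of any gene reaches 0.

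Patterns over the 4 libraries were compared by the distance between profiles of log2(CPM + 0.5), each centred on its own mean, among 13666 genes that averaged 1 CPM or more. These profiles follow the same decrease that chose the genes, so the likeness is a description. The added 0.5 draws the profiles of low genes towards 0, such as those of Dsc2, E2f1 and Cpsf4l. Nearest to Necab3 were the tenascin C gene Tnc (distance 0.404), the protease gene Pappa (0.551) and Gpr17, a receptor gene of immature oligodendrocytes (0.666). Nearest to E2f1 were Mkrn3 (0.129), Rasal1 (0.275) and Tgm5 (0.338). Necab3 and E2f1 were 0.689 apart, and E2f1 was closer to Mybpc3 (0.404), Cpsf4l (0.455) and Dsc2 (0.569) by this measure. At 1.66 and 0.951 CPM at 79 weeks, however, E2f1 was flattened more by the added 0.5 than Necab3 was. This order therefore does not show which of the genes E2f1 resembles most.

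Gpr17 was also nearest to Dsc2 (0.352), followed by Mkrn3 (0.448) and the collagen gene Col23a1 (0.468). Pappa was nearest to Cpsf4l (0.305), before Rasal1 (0.349) and the sialidase gene Neu2 (0.352). Nearest to Mybpc3 were the carbonic anhydrase gene Car9 (0.143), the collagen gene Col3a1 (0.161) and Neu2 (0.182). Olfm3 had the smallest distances. They were 0.018 to the heparan sulfate enzyme gene Hs3st5, 0.0486 to the potassium channel gene Kcnq3 and 0.0576 to the proteoglycan gene Ncan. Distances were not scaled for the size of the change, which was the smallest of the 6 in Olfm3. They therefore do not rank the 6 genes by closeness of match.

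Levels of every marker list with a called gene, other than the tissue check, are given beside these values. Summed over 10 markers each, oligodendrocyte precursor and premyelinating genes stood at 374 and 405 CPM at 7 weeks and at 292 and 351 CPM at 79 weeks, with 3 of 10 called lower, and granule neuron genes stood at 7692 and 7358 CPM against 6278 and 5995 CPM, with 6 lower and 1 higher. Myelinating oligodendrocyte genes stood at 5944 and 5587 CPM and at 3546 and 5010 CPM, with 5 of 10 lower. Unipolar brush cell genes, 8 in number, stood at 1544 and 1499 CPM and at 1262 and 1221 CPM, with 3 lower and 2 higher. Purkinje cell genes stood at 11790 and 12390 CPM and at 10810 and 11000 CPM, with 4 of 10 lower. Microglia genes stood at 132 and 145 CPM and at 227 and 281 CPM, with 6 of 10 higher. Bergmann glia and astrocyte genes stood at 4812 and 5129 CPM and at 4407 and 4739 CPM, with 2 higher and 1 lower of 10. Ependymal genes, 8 in number, stood at 9.53 and 8.78 CPM and at 42.8 and 15.6 CPM, with 1 higher, and 10 meningeal and fibroblast genes at 851 and 1054 CPM and at 1337 and 893 CPM, with 1 lower. The part of these cell types in the levels of the 6 genes was not tested. Choroid plexus markers were high in 1 of the 79-week libraries. All 6 genes were below their 7-week levels in both 79-week libraries, which follows from how they were chosen. The part of choroid plexus tissue in their levels was not tested either.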

How the data were processed

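For each of 4 cerebellum RNA libraries the authors deposited unnormalised read counts by Ensembl gene. The submitters' processing notes name cutadapt, STAR and HTSeq and the mouse build mm9, with no versions. The annotation release and strand setting: not given in the sources used here. HTSeq summary lines were removed. Symbols came from a table that matched 32919 of 37991 identifiers.

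The low-count filter was filterByExpr of edgeR 4.0.16, run in R 4.3.3 (minimum count 10, minimum total 15). Libraries were scaled by TMM (factors 0.9812 to 1.023) and compared as 79 minus 7 weeks by edgeR's quasi-likelihood F test without covariates, and p-values were adjusted by Benjamini-Hochberg across the 15292 genes that passed (threshold 0.05). The 6 genes were part of this fit and adjustment, but no p-value or call is given for them. Standard errors come from the same test, as the absolute log2 fold change divided by the square root of F. Replicate ratios carry exact (Clopper-Pearson) 95% counting intervals. The genes, the 7 pathway lists and the marker lists were chosen with earlier results of these data known. Genes named beside the 6 are family relatives, up to 3 called genes per list with the smallest p or else the 2 most abundant, nearest neighbours in RefSeq's order, and the 3 genes nearest in profile. Some list genes, neighbours and markers (Tfdp1, Tfdp2, Ccne2, Top2a, Mki67, Tyms, Mcm4, Mcm5, Mcm7, Ezh2, Tpm1, Nebl, Myh7, Tnni3, Myoc, Olfml2a, Olfml2b, Tnnt2, Myh6, Myl7, Tnnc1, Dsp, Dsg2, Krt5, Krt14, Apba1, Apba2, Calb1, Calb2, Gabra6, Ttr and D11Wsu47e) were named after their values were seen. The fit was tested on simulated counts for 15292 genes. In the right direction it called 75 of 100 tested genes changed by 1 on the log2 scale, and 93 of 99 changed by 2. It also called 25 unchanged genes. Promoter sequences are RefSeq's (GRCm38.p6), matched by symbol for 5 of the 6 genes, with that of E2f1 not used.

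Alternatives were 3 other scalings (RLE, upper quartile, library size), 2 other low-count filters (none, and 1 CPM in 2 libraries), DESeq2 1.42.0, limma-voom 3.58.1, robust dispersion, a replicate block, and each library left out in edgeR and DESeq2. With a library left out, the lone library of its age is assumed to vary like the others. A few list and neighbouring genes are not reported here by name.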

Additional observations from a re-analysis of the deposited data

How the results depend on the processing

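The number of genes called (1352) stayed within 1.5 times under 3 other scalings, a filter of 1 CPM in 2 libraries, DESeq2, limma-voom, robust dispersion and the replicate block (1396 genes), and so did the 15 called in the pathway lists (19 with the replicate block). Without the low-count filter the counts were 3051 and 28. Leaving out 1 library gave 0 (without 7-week replicate 1) to 2425 genes (without 79-week replicate 2), and 0 to 25 in the lists. DESeq2 without 1 library called 235 and 421 genes (7-week replicates 1 and 2 left out) and 379 and 654 (79-week replicates), with 8 in the lists without 79-week replicate 1. Of 1385 genes called with library size scaling 65.1% were higher, against 47.1%. Same-numbered libraries deviated from their age means with a correlation of -0.106 over 15292 genes. A crossed block, added after seeing this, called 2014 genes and 22 in the lists. The log2 fold changes of the 6 genes kept their sign in every one of 18 alternatives each. Precision is limited by 2 libraries per age and, for Dsc2, by 6 and 7 reads at 79 weeks.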
